A study of Mus musculus with 4 samples.

Results

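The interleukin 1 (IL-1) and interleukin 18 (IL-18) system was examined through 10 genes of the 22422 in the deposited table. They were chosen by name for their roles as ligands, antagonists, decoys or receptors, with earlier results of these data known. The ligands were Il1a, Il1b, Il18 and Il36g (listed as Il1f9 in the annotation), the antagonists Il1rn and Il18bp, the decoy receptor Il1r2, and the signalling receptor chains Il1r1, Il1rap and Il18r1. All 10 had a row in the table and all 10 passed the filter on low values. RNA came from the distal colon of 6-week-old female mice given 2% dextran sulfate sodium (DSS, a polysaccharide that injures the colonic epithelium) for 5 days. The mice were Elf4fl/fl-Villin-Cre (2 libraries), in which Cre recombinase expressed from the villin promoter deletes the floxed gene of the ETS transcription factor Elf4 in intestinal epithelium, or wild type (2 libraries). The series gives C57BL/6 as the background of both genotypes, while the sample labels of the Elf4fl/fl-Villin-Cre libraries read C57BL/8. Nothing in the labels says whether the libraries came from separate animals or whether the wild-type mice carried Cre or floxed alleles, so the tests measure the spread between these libraries, which may be technical. Both genotypes received DSS, and colon without DSS was not analysed here.

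Background on this family is as follows. IL-1α and IL-1β bind the receptor Il1r1, which then recruits the accessory chain Il1rap and signals through MyD88 and IRAK kinases to NF-κB. The antagonist encoded by Il1rn occupies Il1r1 without signalling, and Il1r2 binds IL-1 but lacks a signalling domain. IL-1β and IL-18 are made as precursors that caspase-1 cleaves in inflammasomes, and IL-18, which the intestinal epithelium makes constitutively, is held by the soluble binding protein encoded by Il18bp.

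The libraries were of like depth, at 15885028 to 16425954 recovered reads. Elf4 itself was lower, at 897 and 758 normalised reads in Elf4fl/fl-Villin-Cre colon and at 1588 and 1938 in wild-type colon (log2 fold change -1.09 ± 0.16 SE, limma adjusted p = 0.0139). Which exons the reads came from cannot be seen in a gene-level table, and the tissue also holds cells that do not use the villin promoter. The intestinal epithelial markers Krt20, Lgals4 and Vil1 were present in every library, while the site within the gut rests on the tissue label. Of 12 epithelial markers, 12 were lower (median log2 fold change -1.39), with summed levels of 108523 and 136435 normalised reads in Elf4fl/fl-Villin-Cre and 327276 and 394100 in wild-type colon. One wild-type library stood apart in squamous epithelial genes, which mark the lining next to the anus. The 13 measured squamous markers summed to 243 and 1114 normalised reads in Elf4fl/fl-Villin-Cre colon and to 282 and 6783 in wild-type colon, the last being wild-type replicate 2, and limma called 1 of them higher and 0 lower. Krt1, Krt6a and Krtdap were each at 0 in a library. In bulk tissue, fewer cells of a type and less RNA per cell cannot be told apart.

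Of the 10 genes, 7 rose and 1 fell in Elf4fl/fl-Villin-Cre colon, and the 2 antagonists did not pass the test. The 3 ligands of the IL-1 and IL-36 branches, the decoy and the 3 receptor chains rose, Il18 fell, and Il1rn and Il18bp had overlapping groups. Over all 22050 genes tested, limma called 6.86% higher and 8.6% lower at an adjusted p under 0.05 (15.5% in either direction). The 10 genes were chosen with earlier results known, so their count is not independent evidence of a direction. The median log2 fold change was 1.70 over the 10 genes and 0.11 over all genes tested. The groups did not overlap for 8 of the 10 genes, 7 higher and 1 lower, against 62.2% of all genes tested (35% higher and 27.2% lower), a share so large that separation alone says little. edgeR on the recovered reads also called 7 higher and 1 lower, where it called 9.88% of its 17337 genes higher and 13.5% lower. With 1 library left out, edgeR called 5 or 6 higher and 0 or 1 lower. The limma log2 fold changes set Elf4fl/fl-Villin-Cre against wild type after adding 1 to each value, which shrinks those of genes with few reads. Those given for edgeR come from the recovered reads. Genes with few reads differed from edgeR both ways, with Il36g at 2.22 in limma and 2.16 in edgeR, and Csf2 at 2.64 and 2.92. Scaling by library totals in place of the authors' factors moved the median of all genes from 0.11 to 0.41 and the calls over all genes from 1512 higher and 1897 lower to 4114 higher and 1194 lower, but left the 7 and 1 calls among the members.

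**Figure D1:**
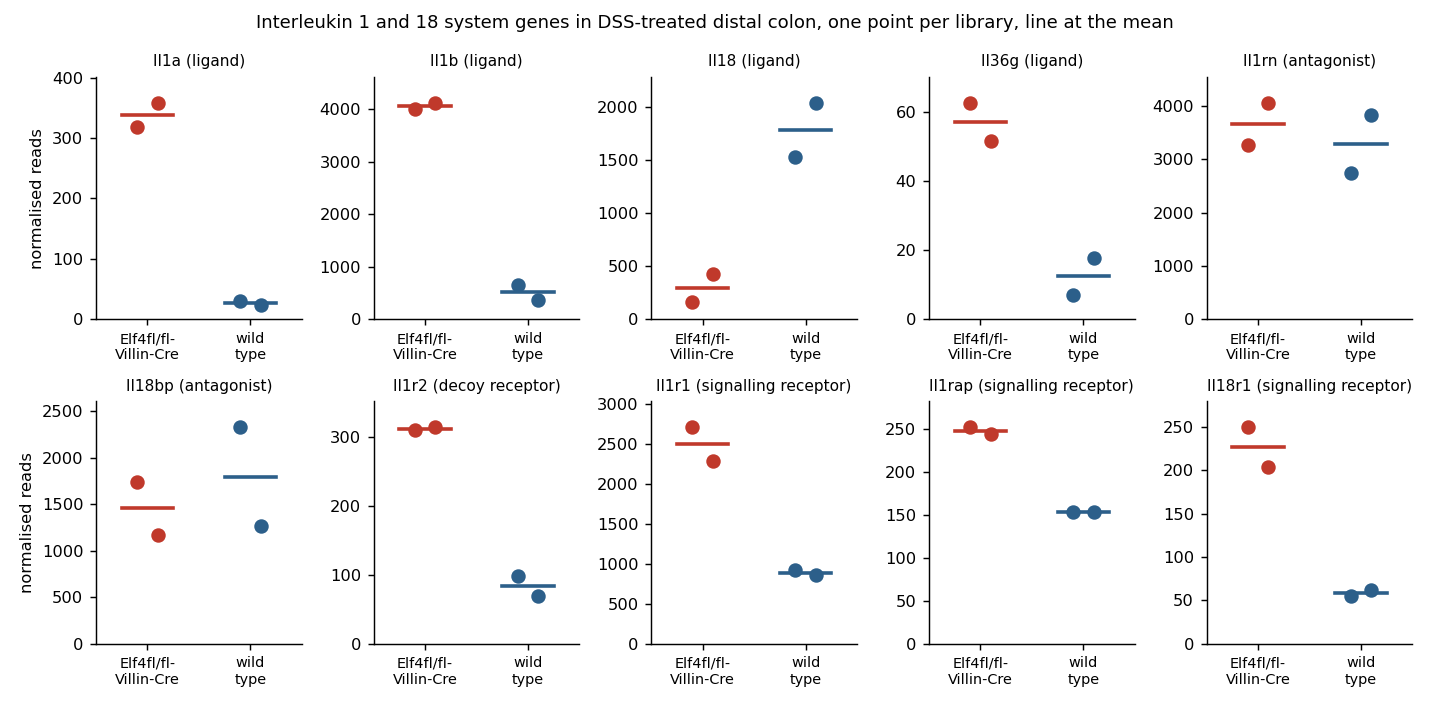
Normalised reads of each of the 10 genes by library, with Elf4fl/fl-Villin-Cre on the left and wild type on the right of each panel. Each point is 1 library (n = 2 per genotype), the bar is the mean, and every axis starts at 0. The groups are apart in 8 panels and overlap for Il1rn and Il18bp.

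Il1a and Il1b had the largest fold changes among the members. Il1a (ENSMUSG00000027399.1), which encodes a cytokine that is active without caspase-1 cleavage and is released from damaged cells, had 318 and 358 normalised reads in Elf4fl/fl-Villin-Cre colon, against 30.9 and 24.2 in wild-type colon. Both Elf4fl/fl-Villin-Cre libraries were far above both wild-type libraries. Averages of 338 ± 27.9 in Elf4fl/fl-Villin-Cre and 27.6 ± 4.69 in wild-type colon (SD, n = 2 each) gave a 12.3-fold difference and a log2 fold change of 3.58 ± 0.23 (SE, limma adjusted p = 0.00636). Il1b (ENSMUSG00000027398.13), encoding the main IL-1 of activated monocytes, macrophages and neutrophils, had 3992 and 4110.3 normalised reads in Elf4fl/fl-Villin-Cre colon and 661 and 368 in wild-type colon. The Elf4fl/fl-Villin-Cre libraries lay close together, the wild-type libraries further apart, and the groups did not overlap. The difference was 7.88-fold, with a log2 fold change of 3.04 ± 0.27 (SE, limma adjusted p = 0.00745). edgeR called both genes without any 1 library, with adjusted p of at most 0.0196 for Il1a and 0.0185 for Il1b.

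Il36g and Il18 went opposite ways. Il36g (ENSMUSG00000044103.4, chromosome 2, 24186476 to 24193568), an IL-36 ligand of barrier epithelia that signals through the receptor chain Il1rl2 with Il1rap, was the least abundant ligand by read count. It had 62.7 and 51.8 normalised reads in Elf4fl/fl-Villin-Cre colon and 7.20 and 17.9 in wild-type colon. The wild-type values rest on 7 and 17 reads, so counting error is large there. The groups were apart by 4.56-fold (log2 fold change 2.22 ± 0.49 SE, limma adjusted p = 0.0325). edgeR no longer called it when wild-type replicate 1 was left out (adjusted p = 0.0664) or when Elf4fl/fl-Villin-Cre replicate 1 was (adjusted p = 0.0582), and limma lost it with quantile scaling (adjusted p = 0.0771) and with no filter on low values (adjusted p = 0.0528). Without wild-type replicate 2, the library rich in squamous markers, the edgeR log2 fold change was 2.95. Within wild type, that library had more Il36g than replicate 1, at 17.9 against 7.20 normalised reads. Within Elf4fl/fl-Villin-Cre colon the order was the other way, as replicate 1 had more Il36g and the lower squamous sum. The part of squamous epithelium in Il36g was not tested.

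Il18 (ENSMUSG00000039217.13) was the only member that fell. It had 166 and 426 normalised reads in Elf4fl/fl-Villin-Cre colon, against 1532 and 2039 in wild-type colon. Both Elf4fl/fl-Villin-Cre libraries lay under both wild-type libraries, but they were far from each other. The average was 296 ± 183 in Elf4fl/fl-Villin-Cre and 1785 ± 358 in wild-type colon (SD, n = 2 each), 6.03-fold lower, with a log2 fold change of -2.73 ± 0.42 (SE, limma adjusted p = 0.015). edgeR lost the call without wild-type replicate 2 (edgeR log2 fold change -2.40, adjusted p = 0.0518). Leaving out either Elf4fl/fl-Villin-Cre library gave limma log2 fold changes of -3.40 (replicate 2 out) and -2.05 (replicate 1 out). The 12 epithelial markers, all lower in the same libraries, fell by 1.45 on average on the same scale. Single markers did not all change alike, with log2 fold changes from -1.04 for Krt20 to -2.15 for Krt19. Relative to the mean log2 level of those markers, Il18 stood at -5.35 and -4.33 in Elf4fl/fl-Villin-Cre colon and at -3.66 and -3.47 in wild-type colon. The difference on that scale was -1.27, and the groups did not overlap. The part of the change in epithelial markers in the change of Il18 was not tested.

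Il1a and Il1b are neighbours on mouse chromosome 2 (129299610 to 129309972 and 129364570 to 129371139, both on the minus strand, mm10), and Il18 lies on chromosome 9 (50554827 to 50581840, plus strand). The 250 bases before the RefSeq transcription start (build GRCm38.p6) are shown for these ligands, the pair that rose most and the one that fell. Capitals mark matches to a pair of short motifs, each searched on both strands. The core promoter element is TATAAA. The motif of AP-1 factors is TGANTCA.
Il1a, chr2:129309973-129310222, minus strand: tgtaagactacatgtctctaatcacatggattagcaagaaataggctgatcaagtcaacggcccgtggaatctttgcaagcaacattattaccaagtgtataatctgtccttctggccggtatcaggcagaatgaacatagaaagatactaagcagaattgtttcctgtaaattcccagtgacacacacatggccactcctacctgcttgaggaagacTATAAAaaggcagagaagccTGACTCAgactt
Il1b, chr2:129371140-129371389, minus strand: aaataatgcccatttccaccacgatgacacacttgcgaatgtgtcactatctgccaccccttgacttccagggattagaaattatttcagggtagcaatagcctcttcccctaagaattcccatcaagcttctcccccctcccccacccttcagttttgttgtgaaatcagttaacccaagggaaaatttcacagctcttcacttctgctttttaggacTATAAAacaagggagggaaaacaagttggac
Il18, chr9:50554450-50554699, plus strand: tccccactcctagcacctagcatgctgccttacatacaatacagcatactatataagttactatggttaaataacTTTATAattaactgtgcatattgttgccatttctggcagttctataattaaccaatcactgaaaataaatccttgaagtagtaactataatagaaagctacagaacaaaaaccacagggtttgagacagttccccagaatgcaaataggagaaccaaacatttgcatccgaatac

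The TATA letters begin at base -32 from the start in Il1a and at base -31 in Il1b. In Il18 the match lies on the other strand, from base -175. All 10 genes matched the RefSeq promoter table, with 15 promoter entries among them. TATAAA was in 3 of the 15 entries and in 12.4% of all 32851 promoters of the same length. An NF-κB motif, GGGA and CC with 4 bases between them, was in 2 of the 15, those of Il1rn and Il1rap, and in 17.6% of all promoters. The AP-1 letters were in 2, those of Il1a and Il1rn, and in 6.75% of all promoters. The STAT letters TTCNNNGAA were in 3, those of Il36g, Il1r2 and Il18r1, and in 7.02% of all promoters. Letters preferred by the ELF branch of ETS factors, CCGGAAGT, were in 0 of the 15 and 2.88% of all promoters, and ISRE, here TTTC repeated after a gap of 2 bases, was in 0 of the 15 and 2.98%. These motifs do not overlap in the 3 sequences shown, and a match is a description of letters only.

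Neither antagonist differed beyond the spread between libraries. Il1rn (ENSMUSG00000026981.15, chromosome 2, 24336853 to 24351494), the IL-1 receptor antagonist, had 3269.8 and 4053 normalised reads in Elf4fl/fl-Villin-Cre colon and 2745 and 3830.2 in wild-type colon. The groups overlapped, with a log2 fold change of 0.17 ± 0.21 (SE, limma adjusted p = 0.622). In each genotype the library with the higher squamous sum also had more Il1rn, and the log2 fold change was 0.41 with wild-type replicate 2 left out, and -0.07 with wild-type replicate 1 left out. The part of squamous epithelium in Il1rn was not tested. Il18bp (ENSMUSG00000070427.4, chromosome 7, 102014885 to 102018690), the secreted IL-18 antagonist, had 1744 and 1171 normalised reads in Elf4fl/fl-Villin-Cre colon and 2326 and 1268 in wild-type colon. These groups overlapped too (log2 fold change -0.27 ± 0.32 SE, limma adjusted p = 0.616), and the sign turned to 0.05 with library totals. Its exons share 80 bases with Numa1 on the opposite strand, and whether the counting used strand is not given in the sources used here.

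The ratio of antagonist to ligand was lower for IL-1 and higher for IL-18 in Elf4fl/fl-Villin-Cre colon, with groups apart. These ratios restate the log2 fold changes of their genes and are not a separate result. The ligands passed the limma test and the antagonists did not. Groups were also apart for 62.2% of all single genes tested. Il1rn had 0.819 and 0.986 reads per Il1b read in Elf4fl/fl-Villin-Cre colon and 4.16 and 10.4 in wild-type colon. It had 10.3 and 11.3 reads per Il1a read in Elf4fl/fl-Villin-Cre colon, against 88.9 and 158 in wild-type colon. In both ratios every Elf4fl/fl-Villin-Cre library was below every wild-type library, and gene length cancels between genotypes. Il18bp went the other way, with 10.5 and 2.75 reads per Il18 read in Elf4fl/fl-Villin-Cre colon and 1.52 and 0.622 in wild-type colon. On the log2 scale the differences were -2.87, -3.41 and 2.46. The decoy Il1r2 had 0.114 and 0.137 reads per Il1r1 read in Elf4fl/fl-Villin-Cre colon and 0.107 and 0.0800 in wild-type colon, a log2 difference of 0.42. For each of the 4 ratios the exact two-sided permutation test gave p = 0.333 (also 0.333 after adjustment over the 4), which is the smallest p that 2 libraries against 2 allow. With 1 library left out, the difference ranged from 1.5 to 3.43 for Il18bp to Il18, where leaving out Elf4fl/fl-Villin-Cre replicate 1 gave the lowest value. For Il1r2 to Il1r1 it ranged from 0.22 with wild-type replicate 2 left out to 0.63.

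**Figure D2:**
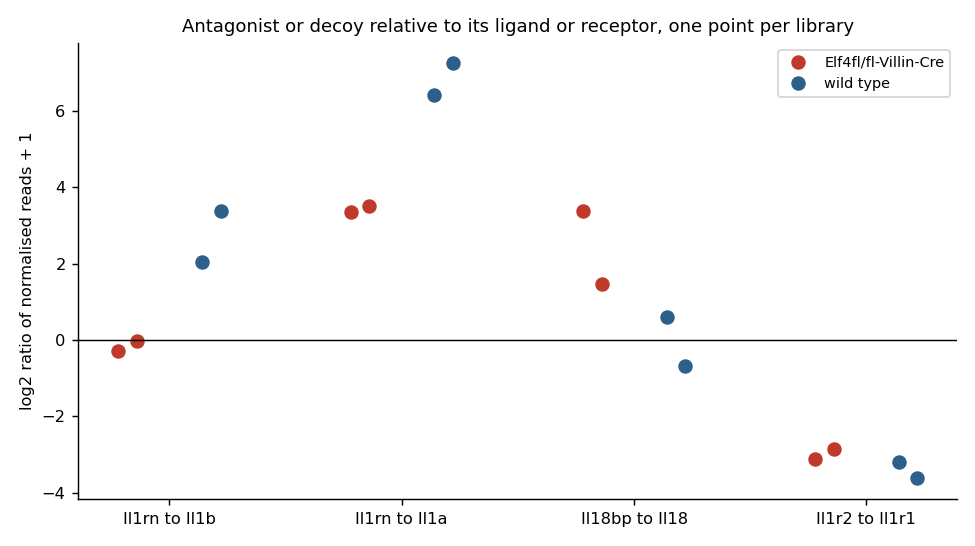
Log2 ratio of antagonist to ligand, or of decoy to receptor, computed from normalised reads + 1 in each library (vertical axis), with Elf4fl/fl-Villin-Cre points left of wild-type points. Il1rn to Il1b and Il1rn to Il1a lie lower in Elf4fl/fl-Villin-Cre colon (differences of -2.87 and -3.41), and Il18bp to Il18 lies higher (2.46).

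The receptor chains and the decoy were higher in Elf4fl/fl-Villin-Cre colon. Il1r1 (ENSMUSG00000026072.12), the signalling IL-1 receptor of stromal and other cells, had 2710.3 and 2285 normalised reads in Elf4fl/fl-Villin-Cre colon, against 923 and 856 in wild-type colon. The 2.81-fold difference far exceeded the spread within either genotype (log2 fold change 1.48 ± 0.14 SE, limma adjusted p = 0.00799). Of 10 fibroblast markers, 4 were also higher (median log2 fold change 0.65), or 8 with library totals (median 0.97), with summed levels of 88026 and 91497 normalised reads in Elf4fl/fl-Villin-Cre and 55236 and 44219 in wild-type colon. Relative to the mean of those markers, which did not all change alike, Il1r1 differed by 0.71 on the log2 scale, with groups apart. The part of fibroblast content in Il1r1 was not tested.

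Il1r2 (ENSMUSG00000026073.13), the decoy made by neutrophils and macrophages among other cells, had 309 and 314 normalised reads in Elf4fl/fl-Villin-Cre colon and 98.8 and 68.5 in wild-type colon. The difference was 3.72-fold (log2 fold change 1.91 ± 0.23 SE, limma adjusted p = 0.00978). Il1rap (ENSMUSG00000022514.14, chromosome 16, 26581704 to 26730117), the chain shared by the receptors for IL-1, IL-33 and IL-36, changed least among the genes that passed, with 252 and 244 normalised reads in Elf4fl/fl-Villin-Cre colon against 153 and 154 in wild-type colon. Its replicates were nearly equal in both genotypes, and the difference was 1.61-fold (log2 fold change 0.69 ± 0.16 SE, limma adjusted p = 0.0406). That call was lost in edgeR without any 1 of the 4 libraries (adjusted p = 0.108 to 0.171), in DESeq2 (adjusted p = 0.0636) and with quantile scaling (limma adjusted p = 0.0776). Il18r1 (ENSMUSG00000026070.15), the ligand-binding chain of the IL-18 receptor, had 249 and 203 normalised reads in Elf4fl/fl-Villin-Cre colon and 55.6 and 62.2 in wild-type colon. It rose 3.84-fold (log2 fold change 1.92 ± 0.22 SE, limma adjusted p = 0.00942) while its ligand Il18 fell. edgeR called Il1r1, Il1r2 and Il18r1 without any 1 library, with adjusted p of at most 0.0336, 0.0329 and 0.0353.

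**Figure D3:**
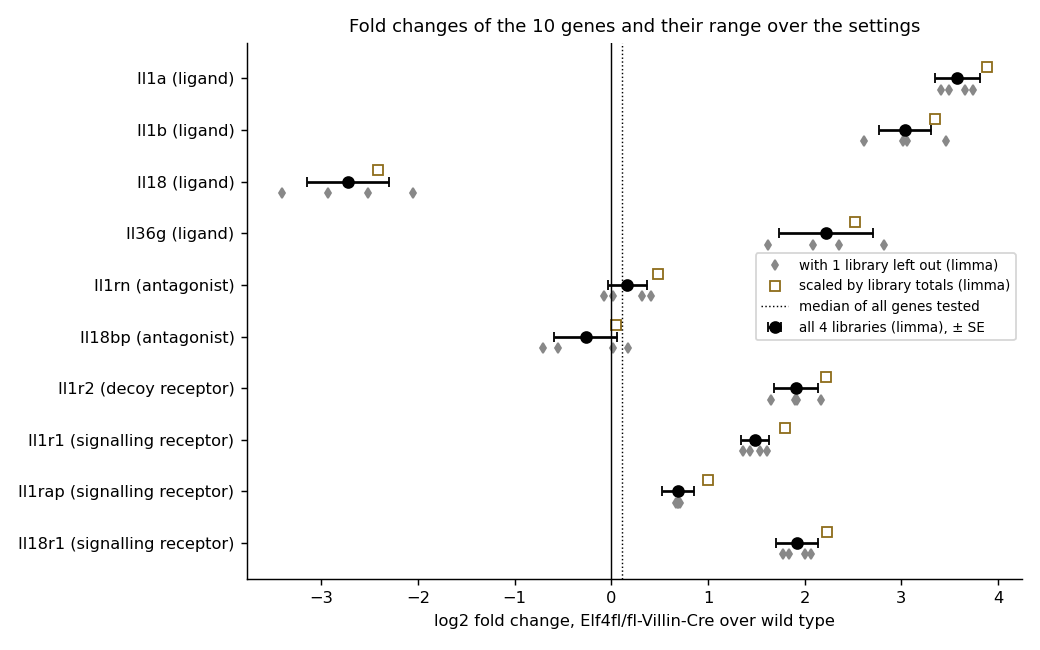
Log2 fold change of each of the 10 genes, Elf4fl/fl-Villin-Cre over wild type (horizontal axis), by role. Black points are limma estimates ± SE from all 4 libraries, grey diamonds the limma estimates with 1 library left out, open squares those with library totals, and the dotted line is the median of all genes tested (0.11). Il18 is the only gene left of 0 in every setting drawn, and the points of Il1rn and Il18bp lie on both sides of 0.

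Il1r2, Il1r1 and Il18r1 belong to a run of 6 IL-1 family receptor genes on chromosome 1, between 40074079 and 40551705, and all 6 rose. The run was singled out after its values were seen. From Il1r2 onward the order is Il1r1, Il1rl2, Il1rl1, Il18r1 and Il18rap. Il1rl2, the IL-36 receptor chain, had 387 and 283 normalised reads in Elf4fl/fl-Villin-Cre colon against 120.4 and 146 in wild-type colon (log2 fold change 1.31 ± 0.22 SE, limma adjusted p = 0.0175). edgeR lost its call when wild-type replicate 1 or 2 was left out (adjusted p = 0.0544 and 0.0502). Il1rl1, the receptor for IL-33, changed most in the run, with 8301 and 11109 normalised reads in Elf4fl/fl-Villin-Cre colon and 424 and 371 in wild-type colon (log2 fold change 4.59 ± 0.18 SE, limma adjusted p = 0.00114). Il18rap, the accessory chain for IL-18, had 359.96 and 328 normalised reads in Elf4fl/fl-Villin-Cre colon against 82.3 and 33.7 in wild-type colon (log2 fold change 2.68 ± 0.41 SE, limma adjusted p = 0.0144). The protein-coding genes of the table on either side did not share 1 direction. Map4k4, a kinase gene just before the run, was higher by 1.11 (limma adjusted p = 0.0115), and the exchanger gene Slc9a2, second after it, fell by 1.55 (limma adjusted p = 0.0132). Slc9a4, a sodium-proton exchanger gene just after the run, had a log2 fold change of 0.04 ± 0.42 (SE, limma adjusted p = 0.955). It had few reads, at 15.5 and 12.5 normalised reads in Elf4fl/fl-Villin-Cre and 14.4 and 12.6 in wild-type colon. Il18r1 starts 136 bases after the annotated end of Il1rl1 on the same strand, and the Il1rl1 level was far above that of Il18r1 in each Elf4fl/fl-Villin-Cre library. The part of reads running on from Il1rl1 in the count of Il18r1 was not tested.

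**Figure D4:**
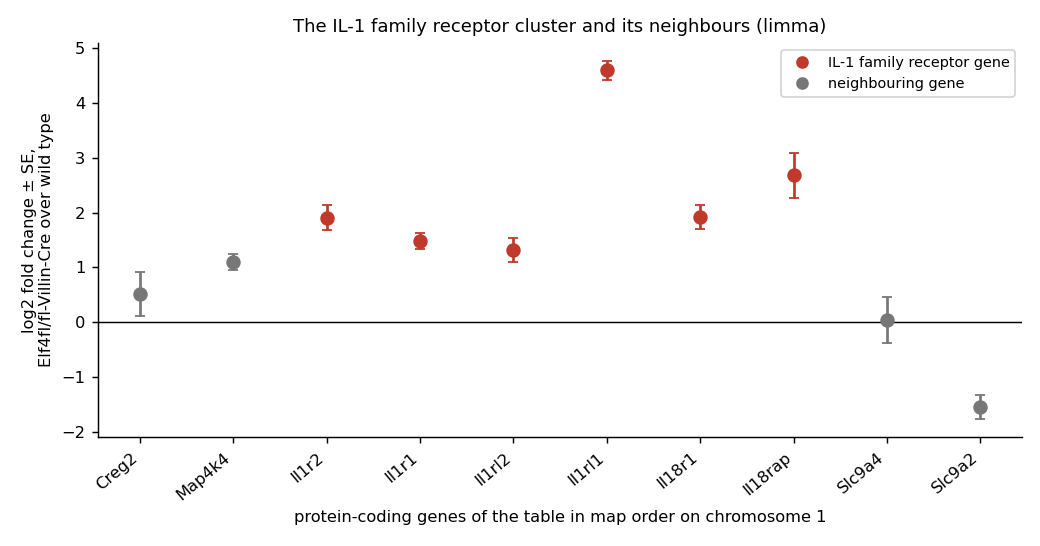
Log2 fold change ± SE (limma, Elf4fl/fl-Villin-Cre over wild type, 2 libraries each) of the protein-coding genes of the table in map order along chromosome 1. Red points are the 6 IL-1 family receptor genes, all above 1, and grey points their neighbours, which run from -1.55 to 1.11.

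Levels can be compared between genes only per length, here as recovered reads scaled to annotated exon length and library total (RPKM). In Elf4fl/fl-Villin-Cre colon Il1b led, with 160.4 and 157 RPKM, and the order went on with Il1rn (45.3 and 53.3), Il18bp (44.2 and 28.2), Il1r1 (32.6 and 26.1) and Il18 (12.3 and 30.1 RPKM). In wild-type colon Il18 led, with 89.5 and 118 RPKM, and was followed by Il18bp (46.3 and 25.03), Il1rn (29.9 and 41.3), Il1b (20.9 and 11.5) and Il1r1 (8.74 and 8.03 RPKM). Il1b ranked 1 in Elf4fl/fl-Villin-Cre colon and 4 in wild-type colon, and Il18 ranked 5 in Elf4fl/fl-Villin-Cre colon and 1 in wild-type colon. In Elf4fl/fl-Villin-Cre colon Il18bp, Il1r1, Il18, Il1a and Il1r2 each overlapped their neighbour in this order, and in wild-type colon so did Il18bp with Il1rn and Il1a with Il1rap. The others were apart from their neighbours. The lowest RPKM belonged to Il1rap in Elf4fl/fl-Villin-Cre colon (1.70 and 1.56) and to Il36g in wild-type colon (0.263 and 0.649). Exons of all annotated transcripts were merged for the length, which lowers the RPKM of genes with many isoforms such as Il1rap.

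Over the 4 libraries, the patterns nearest to Il1b among 10532 better-expressed genes were those of the macrophage elastase gene Mmp12, the T cell costimulatory receptor gene Tnfrsf9 and the activin subunit gene Inhbb. Their root mean square differences from Il1b were 0.0958, 0.101 and 0.114 on the centred log2 scale. The nearest to Il18 were Akr1c14, an aldo-keto reductase gene, Ugt2b34, a glucuronosyltransferase gene, and Slc6a14, an amino acid transporter gene, at 0.0855, 0.102 and 0.125. Akr1c14 had 119.7 and 269 normalised reads in Elf4fl/fl-Villin-Cre colon and 991 and 1261 in wild-type colon. With 4 libraries in 2 groups, many genes share such a pattern.

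Most neutrophil, monocyte and macrophage markers were higher in the libraries in which Il1b and Il1r2 were higher, while the other leukocyte lists were not uniformly so. Of 11 neutrophil markers measured, 8 were higher (median log2 fold change 3.26), and DESeq2 called 8 higher and 1 lower. The sum was 16899 and 18547 normalised reads in Elf4fl/fl-Villin-Cre and 14671 and 14352 in wild-type colon. Most of that sum was Ly6g, at 9105 and 10787 in Elf4fl/fl-Villin-Cre and 12663 and 13520.2 in wild-type colon, while the granule gene Camp was at 0 in 1 wild-type library. Of 12 monocyte and macrophage markers, 11 were higher (median log2 fold change 0.97), with sums of 35184 and 24472 in Elf4fl/fl-Villin-Cre and 15858 and 12181 in wild-type colon. Relative to the mean of the neutrophil markers Il1b was higher by 0.51 on the log2 scale and Il1r2 lower by 0.62, and relative to the monocyte and macrophage markers Il1b was higher by 1.95, with groups apart in each case. The neutrophil markers did not all change alike, with log2 fold changes of -0.40 for Ly6g and 0.23 for Ltf. Their mean log2 difference was 2.53, under the list median of 3.26, and Il1b differed by 3.04. Of 8 dendritic cell markers, 2 were higher and 0 lower (median log2 fold change 0.54). Mast cell markers went the other way, with 0 of 10 higher and 3 lower (median log2 fold change -1.22), and Cma2 was at 0 in 1 Elf4fl/fl-Villin-Cre library. Erythroid markers, which mark blood, had a median log2 fold change of 2.57 (4 of 7 higher), with Slc4a1 at 0 in 1 wild-type library. T and NK cell markers, which mark cells that carry the IL-18 receptor, had a median of 0.19, with 0 of 12 called by limma (before adjustment, p was under 0.05 for 1 higher and 1 lower), 1 called lower by edgeR and 1 by DESeq2. Relative to their mean Il18r1 was higher by 1.68 with groups apart. The part of leukocyte number in the changes of the members was not tested.

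Among the other genes of the IL-1 family, 4 rose and 1 fell of the 5 measured, out of 11 listed, where 6.86% of all genes tested rose and 8.6% fell. Those that rose were Il1rl1, Il1rl2, Il18rap and Il33. The count that rose was 2 with quantile scaling and 2 in edgeR without wild-type replicate 2, where Il1rl2 and Il33 were lost. Il33, an alarmin released from damaged barrier and stromal cells, had 1045 and 1530.1 normalised reads in Elf4fl/fl-Villin-Cre colon and 553 and 261 in wild-type colon (limma adjusted p = 0.0303). limma lost the Il33 call with quantile scaling and with no filter on low values (adjusted p = 0.0567 and 0.0543). In edgeR without wild-type replicate 2 the log2 fold change of Il33 was 1.19. Sigirr, a single-domain receptor that restrains IL-1 and Toll-like receptor signalling, fell, with 213 and 283 normalised reads in Elf4fl/fl-Villin-Cre colon and 550.4 and 459 in wild-type colon (log2 fold change -1.03 ± 0.20 SE, limma adjusted p = 0.023). edgeR lost that call without wild-type replicate 1 (adjusted p = 0.0518). The median over the 5 was 1.73, against 0.11 over all genes.

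Of 18 measured genes that process and release IL-1 and IL-18, 8 fell and 3 rose (median log2 fold change -0.58), where 8.6% of all genes tested fell and 6.86% rose. Casp1, the protease that matures IL-1β and IL-18, had 1033 and 976 normalised reads in Elf4fl/fl-Villin-Cre colon and 2197 and 2723 in wild-type colon (log2 fold change -1.28 ± 0.15 SE, limma adjusted p = 0.0097). Nlrp6, an inflammasome sensor of the intestinal epithelium, fell by 3.60 ± 0.34, to 295 and 296 normalised reads in Elf4fl/fl-Villin-Cre colon, against 2451 and 5264 in wild-type colon (limma adjusted p = 0.00799). Nlrp3, the sensor of the myeloid inflammasome, moved the other way, with 324 and 359.5 normalised reads in Elf4fl/fl-Villin-Cre colon and 50.4 and 54.8 in wild-type colon (log2 fold change 2.68 ± 0.19 SE, limma adjusted p = 0.00636). The other genes that rose were Mefv and Ninj1, and others that fell included Casp8, Pycard, Nlrc4, Gsdmd and Capn1. Of these 7, edgeR lost the calls of all but Pycard without wild-type replicate 2. Relative to the epithelial marker mean, Casp1 had -2.72 and -3.13 in Elf4fl/fl-Villin-Cre and -3.14 and -3.05 in wild-type colon, which overlap. On that scale Nlrp6 had -4.52 and -4.85 in Elf4fl/fl-Villin-Cre and -2.98 and -2.10 in wild-type colon, which do not overlap. The part of the change in epithelial markers in Casp1 and Nlrp6 was not tested. The count of lower genes was 5 with library totals and 5 with quantile scaling (1 higher in the second), and in edgeR without wild-type replicate 2 it was 4, with 1 higher.

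Of 20 genes of the signalling chain below the receptors, 4 rose and 1 fell, where 6.86% of all genes tested rose and 8.6% fell. Their median log2 fold change was 0.02, under library totals 8 rose and 0 fell, and edgeR with any 1 library left out called 2 higher. Map3k8, the kinase Tpl2, rose by 1.40 ± 0.18 and Irak3, an IRAK that restrains signalling, by 1.60 ± 0.22 (limma adjusted p = 0.0109 and 0.0124). Irak4, the first kinase of the chain, fell by 0.63 ± 0.14 (limma adjusted p = 0.0324), a call lost with library totals (log2 fold change -0.31, adjusted p = 0.165) and, in edgeR, when replicate 2 of Elf4fl/fl-Villin-Cre or of wild type was left out (adjusted p = 0.0885 and 0.0906). Rela, the p65 subunit of NF-κB, was higher by 0.54 ± 0.13 (limma adjusted p = 0.0458), and edgeR lost the call without any 1 library (adjusted p = 0.0664 to 0.232). The remaining gene that rose was Nfkb2, with a log2 fold change of 0.50 (limma adjusted p = 0.049), which edgeR also lost without any 1 library. The adaptor gene Myd88 had 854 and 828 normalised reads in Elf4fl/fl-Villin-Cre colon and 985 and 797 in wild-type colon, with overlapping groups (limma adjusted p = 0.773), and was chosen for mention after its values were seen.

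Of 23 genes known to respond to IL-1, 14 rose and 0 fell by limma at the adjusted threshold, where 6.86% of all genes tested rose and 8.6% fell. Before adjustment, limma p was under 0.05 for 16 higher and 0 lower. edgeR and DESeq2 each called 14 higher and 0 lower. Over the other settings with all libraries, the count of higher genes ran from 12 to 16. Quantile scaling lost Csf2 and Vcam1 (limma adjusted p = 0.0586 and 0.0732). The median log2 fold change of the list was 2.32. The list was drawn up with results of these libraries known, so the count is not independent evidence of a direction. Ptgs2, the inducible cyclooxygenase, had 9327 and 8253 normalised reads in Elf4fl/fl-Villin-Cre colon and 325 and 185 in wild-type colon (log2 fold change 5.15 ± 0.27 SE, limma adjusted p = 0.00401). The prostaglandin E synthase gene Ptges had 2009.9 and 1922 normalised reads in Elf4fl/fl-Villin-Cre colon and 455 and 338 in wild-type colon. The collagenase gene Mmp13 had 7979 and 19194 normalised reads in Elf4fl/fl-Villin-Cre colon and 431 and 251 in wild-type colon, and the neutrophil chemokine gene Cxcl5 had 1373 and 1368 against 470.2 and 417. The log2 fold changes were 2.32, 5.23 and 1.63, with limma adjusted p of 0.00646, 0.00737 and 0.00737. Genes of the NF-κB feedback within the list, Nfkbia, Nfkbiz, Tnfaip3 and Zc3h12a, did not pass, with log2 fold changes of -0.15, 0.09, -0.45 and -0.26. The other genes of the list that did not pass were Cxcl1, Cxcl2, Sele, Ccl20 and Nos2. Their log2 fold changes were 2.20, 2.65, 0.87, -0.46 and -0.01, with limma adjusted p of 0.063, 0.0956, 0.162, 0.545 and 0.992.

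Of 12 genes listed as responding to IL-18, among them the chemokine genes Cxcl9, Cxcl10 and Cxcl11, 0 passed limma at the adjusted threshold. Over all genes tested, 6.86% rose and 8.6% fell, so a count of 0 among 12 says little. Before adjustment, limma p was under 0.05 for 1 higher and 0 lower. In edgeR, 0 of the 10 genes it tested passed (1 higher before adjustment), and in DESeq2 0 passed (0 before adjustment). The median log2 fold change of the 12 genes was 0.38, or 0.68 with library totals. The smallest p belonged to Klrk1, an activating receptor gene of NK and T cells, with 85.5 and 55.2 normalised reads in Elf4fl/fl-Villin-Cre colon and 45.3 and 25.3 in wild-type colon (limma adjusted p = 0.146), and to the activation marker Cd69 (limma adjusted p = 0.164). Ifng, the interferon that IL-18 induces, had 24.4 and 0.836 normalised reads in Elf4fl/fl-Villin-Cre colon and 4.12 and 2.11 in wild-type colon. These stand for 30 and 1 recovered reads in Elf4fl/fl-Villin-Cre and 4 and 2 in wild-type colon, so the Elf4fl/fl-Villin-Cre libraries lay on both sides of the wild-type libraries (limma adjusted p = 0.708).

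**Figure D5:**
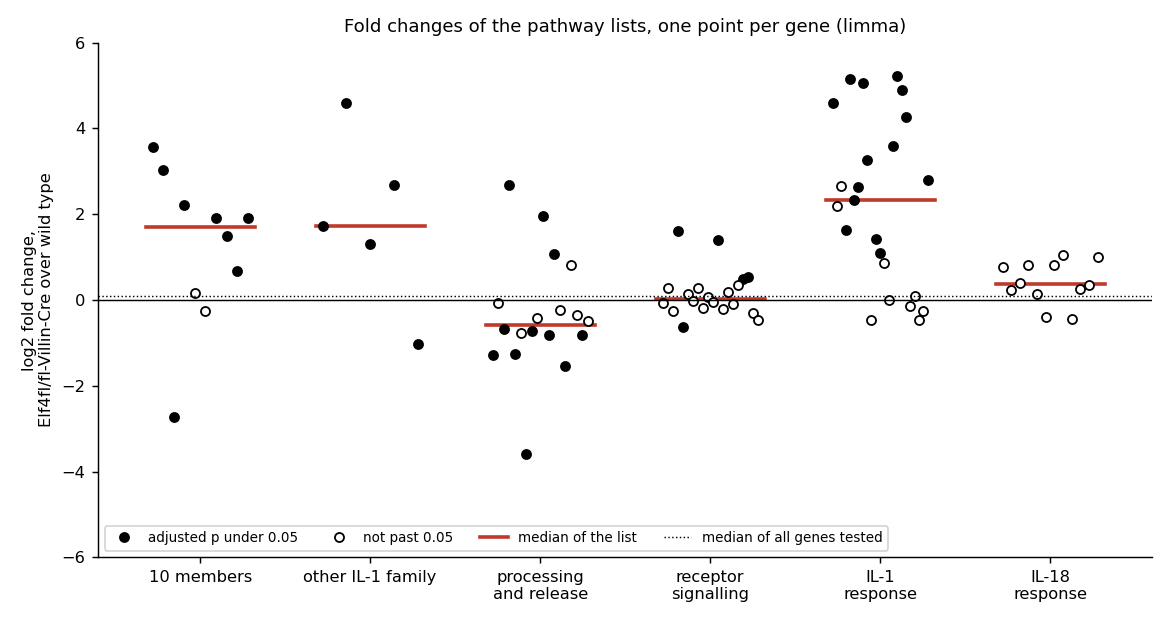
Log2 fold change (limma, Elf4fl/fl-Villin-Cre over wild type, vertical axis) of each measured gene of the 10 members and of the 5 pathway lists. Filled points passed an adjusted p of 0.05, open points did not, red bars are list medians and the dotted line is the median of all genes tested. The median is 2.32 for IL-1 response genes, -0.58 for processing genes and 0.38 for IL-18 response genes.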

How the data were processed

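The authors deposited a table with 1 normalised read signal per gene and library, not raw counts. Every value was a whole multiple of the smallest value above 0 in its library, and 100% of values came out as whole reads (tolerance 0.01), so each library's signal had been scaled by 1 factor. The submitters' processing notes name mm10; for the aligner, counter, strandedness and scaling tool, nothing is given in the sources used here. GENCODE M21 gave names for 22376 of 22422 identifiers (99.8%). limma (3.58.1, R 4.3.3) with a variance trend was fitted to log2(value + 1) of genes with a mean of at least 1, with genotype as the only term and Benjamini-Hochberg adjustment over all genes at 0.05. edgeR's quasi-likelihood test (4.0.16) and DESeq2 (1.42.0) were run on the recovered reads as alternatives, beside other pseudocounts, filters, scalings and each library left out. The fits were also run on simulated data with the same dispersion for all genes and few changed genes. That setting is simpler than these libraries, so it says little about the calls here. Replicates differed by more than counting noise (chi-square per degree of freedom 25.3 in Elf4fl/fl-Villin-Cre and 24.6 in wild type). The members and gene lists were chosen with earlier results of these data known. Named genes were all members, Elf4, up to 4 called genes of each pathway list by smallest p (up to 2 where none passed), and the 3 nearest patterns to Il1b and Il18; 1 gene that this rule names is not reported here. Genes named beside these to account for a count, a neighbour or a list were chosen after their values were seen. Of the listed genes, 11 are not analysed here.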

Additional observations from a re-analysis of the deposited data

How the results depend on the processing

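The count of genes called over all genes was 3409, and it was 5308 with library totals, 1921 with quantile scaling and 3437 with TMM scaling. With 1 library left out, limma called 0 genes in each of the 4 fits, which keep 1 residual degree of freedom (before adjustment, p was under 0.05 for 1717 to 3412 higher and 2061 to 2859 lower genes), and edgeR called 1285 to 3754, with 2142 when Elf4fl/fl-Villin-Cre replicate 1 was out and 1285 when wild-type replicate 2 was out. For the members, counts over the leave-one-out fits ran from 0 to 6 higher and from 0 to 1 lower, the 0 higher coming from limma, which before adjustment had p under 0.05 for 6 or 7 members higher and 1 lower. With all libraries, members higher ranged from 5 to 7, and 1 was lower in each setting. Il1a, Il1b, Il1r1, Il1r2 and Il18r1 kept direction and call in each setting except limma with a library left out. Il1rn and Il18bp, never called, changed sign. Il1rn was at -0.047 in edgeR with Elf4fl/fl-Villin-Cre replicate 2 left out, and at -0.073 (limma) and -0.11 (edgeR) without wild-type replicate 1, over a leave-one-out range up to 0.41. Il18bp was at 0.051 with library totals, at 0.022 in limma without Elf4fl/fl-Villin-Cre replicate 2, and at 0.17 (limma) and 0.16 (edgeR) without wild-type replicate 1, over a leave-one-out range down to -0.70. The cause was not tested. With the replicate number as a block, 4511 genes and the same 7 and 1 members were called. Deviations of same-numbered libraries correlated at 0.104 over genes tested and at 0.198 over genes with a mean of at least 10, and 2 pairs do not show that the numbers pair the samples. The 4 ratios kept their direction under 2 other pseudocounts and with each library left out, the settings run for them, over -3.53 to -2.21 for Il1rn to Il1b, -3.82 to -3.00 for Il1rn to Il1a, 1.5 to 3.43 for Il18bp to Il18 and 0.22 to 0.63 for Il1r2 to Il1r1. Il36g rests on 7 and 17 reads in wild-type colon, so its fold change carries a large counting error.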

Other observations

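Il18bp, whose product neutralises IL-18, is known as a gene induced by interferon gamma. With Il1r1, it was 1 of 2 members higher in replicate 1 than in replicate 2 in both genotypes, at 1744 and 1171 normalised reads in Elf4fl/fl-Villin-Cre colon and 2326 and 1268 in wild-type colon. Of the 12 IL-18 response genes, 10 were also higher in replicate 1 in both genotypes, as were 10 of 12 T and NK cell markers, against 25.5% of all genes tested. Among them, Cxcl9, a chemokine gene induced by interferon gamma, had 1390.2 and 276 normalised reads in Elf4fl/fl-Villin-Cre colon and 419 and 214 in wild-type colon. Gzmb, a cytotoxic granule protease gene, had 391 and 223 in Elf4fl/fl-Villin-Cre colon and 412 and 155 in wild-type colon. This order was seen in the data first, both genes were chosen after their values were seen, and genes of these lists are not independent of each other.

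Squamous markers ran the other way, with 13 of 13 higher in replicate 2 in both genotypes, against 28.5% of all genes tested. Krt14, a basal keratin of squamous epithelium, had 69.2 and 340.3 normalised reads in Elf4fl/fl-Villin-Cre colon and 64.8 and 2524 in wild-type colon, and Il1rn and Il18 were the 2 members with that order.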
